A study of Mus musculus with 8 samples.

Results

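Regions carrying acetylation of histone H3 at lysine 27 (H3K27ac) only in the crypts of fasted mice that had received no tetracycline are described here. They were chosen by the presence and absence of H3K27ac peaks: overlapping peaks (1 bp or more) of the 8 H3K27ac peak lists on chromosomes 1 to 19, X and Y were merged, and a merged region was a member when both lists of fasted, untreated mice had a peak in it and none of the other 6 lists had one. Of 112301 merged regions, 1133 were members, or 1.01%. Because the members were selected on these 8 lists, every H3K27ac value at them below is a description without a test.

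The series profiled H3K27ac and H3K9ac, the acetylation of lysine 9, by CUT&Tag, a method that cuts and tags DNA beside an antibody-bound mark. The material was epithelium from small intestinal crypts of male C57BL/6J mice aged 9 weeks. The groups were Fed_(-Tetra), fed without the antibiotic; Fast_(-Tetra), fasted for 24 h without it; Fed_(+Tetra), fed after 21 days of tetracycline; and Fast_(+Tetra), fasted for 24 h after 21 days of tetracycline. Each group had 1 sample per mark with 2 peak lists, which carry the numbers 1 and 2 only in their names, and the labels do not say whether the lists come from different mice.

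H3K27ac is found at active promoters and enhancers, and H3K9ac mainly at active promoters. Crypts hold the intestinal stem cells, which depend on Wnt ligands and R-spondins, together with Paneth cells and dividing progenitors. During a fast, intestinal epithelium turns to fatty acid oxidation under factors such as PPAR alpha. Tetracycline reduces many gut bacteria, so the design allows one to ask whether the response to fasting is the same with a reduced microbiota.

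The tissue label was checked with H3K27ac peaks within 1 kb of a gene end. All 10 markers of intestinal epithelium had a peak in each of the 8 lists. These markers are not confined to crypts, so they cannot tell crypts from other intestinal epithelium. In no list did any of 3 stromal markers have a peak, and between 1 and 4 of 7 immune markers had one. Of 9 markers of other tissues, 1 or 2 had a peak in each list. The immune count was 4 and 3 in the Fast_(-Tetra) lists and 4 in both Fast_(+Tetra) lists, against 1 to 3 in the Fed lists, and its part in the results was not tested. Read depth is unknown for every list.

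A minority of members lay over annotated start sites: 40 promoter windows of 36 genes, each running from 250 bases before to 50 after a start, touched 35 members. The 200 bases before the start are shown for the 3 highest-scoring members of this kind whose own promoter is covered (Cyp2t4, Cd9 and Cyp2d10), for Mmp7, the Paneth cell gene among the lists used below, and for Plin5, picked after its values were seen because its product coats lipid droplets. Sequences are from RefSeq (GRCm38.p6), 5′ to 3′ on the strand of the gene, and capitals mark letters of a motif searched: GGGCGGG (SP and KLF), TGANTCA (AP-1) or ACANNNTGT (steroid receptor), on either strand.
Cyp2t4 (chr7:27153514-27153713, + strand): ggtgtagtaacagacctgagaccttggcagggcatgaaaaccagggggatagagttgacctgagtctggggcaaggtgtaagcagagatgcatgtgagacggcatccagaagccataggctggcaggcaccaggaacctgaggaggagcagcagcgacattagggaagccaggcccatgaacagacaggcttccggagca
Cd9 (chr6:125494761-125494960, - strand): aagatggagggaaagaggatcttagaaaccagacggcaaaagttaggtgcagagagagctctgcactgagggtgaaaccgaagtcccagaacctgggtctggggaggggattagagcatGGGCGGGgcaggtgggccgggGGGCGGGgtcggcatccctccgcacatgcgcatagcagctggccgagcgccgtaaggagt
Cyp2d10 (chr15:82407195-82407394, - strand): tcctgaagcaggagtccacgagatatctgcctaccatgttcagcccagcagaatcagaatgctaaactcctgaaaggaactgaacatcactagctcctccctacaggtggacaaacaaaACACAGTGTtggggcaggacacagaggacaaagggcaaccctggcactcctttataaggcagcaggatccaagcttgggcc
Plin5 (chr17:56117549-56117748, - strand): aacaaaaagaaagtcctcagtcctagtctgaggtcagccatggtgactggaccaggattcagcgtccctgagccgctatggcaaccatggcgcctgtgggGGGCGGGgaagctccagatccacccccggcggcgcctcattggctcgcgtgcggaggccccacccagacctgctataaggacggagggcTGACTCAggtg
Mmp7 (chr9:7691890-7692089, + strand): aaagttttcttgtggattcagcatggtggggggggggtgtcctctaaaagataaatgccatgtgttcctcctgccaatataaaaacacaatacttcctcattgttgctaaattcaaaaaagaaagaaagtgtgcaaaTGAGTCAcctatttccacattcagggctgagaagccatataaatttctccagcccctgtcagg

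The promoter of Cyp2t4, under the member with the highest scores, held none of the motifs searched. Cd9 held 2 copies of the SP and KLF letters, Plin5 held these and an AP-1 match just before the start, and Mmp7 held an AP-1 match. Plin5 and Mmp7 each had another annotated start in the same member, not printed. The 200 bases before it held only the SP and KLF letters for Plin5 and no motif for Mmp7. Over the 40 windows, the SP and KLF letters occurred in 13 (32.5%), against 33.9% of 21263 promoter windows of the same length in the table. AP-1 matches occurred in 5 (12.5%, against 6.99%), steroid receptor matches in 5 (12.5%, against 5.97%) and the GATA letters AGATAAG in 3 (7.5%, against 2.64%). CDX letters (CAATAAA) were found in 2 windows (5.0%, against 3.85%), FOX letters (TGTTTAC) in 2 (5.0%, against 3.01%) and TEAD letters (GGAATGT) in 1 (2.5%, against 3.38%). HNF4 letters (CAAAGTCCA) and a direct repeat of AGGTCA with 1 base between the copies were in 0 of the 40, against 0.451% and 0.047% of all windows. The AP-1 and steroid receptor motifs read as themselves on the other strand. The median GC content was 56.0% in the members' windows and 56.3% in all windows. These matches are letters in a window, not measured binding.

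Of 1005 microRNA hairpins in the table, 164 lay over any H3K27ac region and 3 over a member. Mir212 and Mir132 are neighbours and share 1 member, chr11:75172806-75173875. Their 3p strands carry the same seed, bases 2 to 8, shown in capitals in the RefSeq sequences.
mmu-miR-212-3p: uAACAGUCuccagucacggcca
mmu-miR-132-3p: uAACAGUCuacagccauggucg

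The 5p strands of both do not share that seed. The third hairpin, Mir6912, lay in a member beside Scamp4, chr10:80607806-80609645. The Mir212 and Mir132 member is described with its peaks below.

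With all peaks used, Fast_(-Tetra) had the most regions of its own. Regions in both lists of a sample and in no list of another sample numbered 319 for Fed_(-Tetra) (0.284% of all merged regions), 179 for Fed_(+Tetra) (0.159%) and 191 for Fast_(+Tetra) (0.17%), against the 1133 of Fast_(-Tetra). The Fast_(-Tetra) lists were also long, with 68545 and 55415 peaks. Fast_(+Tetra) list 1 held 56717, and the other 5 lists held 32392 to 48242. Of the regions that only Fast_(-Tetra) lists had, 28992 were in list 1 alone and 7483 in list 2 alone, so that the members made up 3.01% of them. That share was 6.13% for Fed_(-Tetra), 4.03% for Fed_(+Tetra) and 1.35% for Fast_(+Tetra). The sample with the most own regions was therefore not the one in which the largest share of own regions was found in both lists.

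The order of the samples turned when list size was equalised. With the 32392 top-scoring peaks of each list, which gave 59387 merged regions, Fast_(-Tetra) had 204 regions of its own (0.344%), the fewest of the 4 samples. Fed_(-Tetra) had 318 (0.535%), Fed_(+Tetra) 332 (0.559%) and Fast_(+Tetra) 279 (0.47%). Equal numbers meant unequal score limits. Fast_(-Tetra) peaks were kept down to 120.59 in list 1 and 137.22 in list 2, and the lowest score kept in any list was 50. The members' median score was 78.5 in both lists, so most members fell below these limits. Only 49 of the 204 regions, or 24.0%, lay over a member, and these touched 49 of the 1133 members, or 4.32%. For the rest of the 204, the region merged from all peaks also held a peak of another sample. Fast_(-Tetra) thus had the most own regions with all peaks, and also with the upper 0.5 of each list (677), but not with equal numbers of peaks. The bar charts of own regions show both countings.

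**Figure D1:**
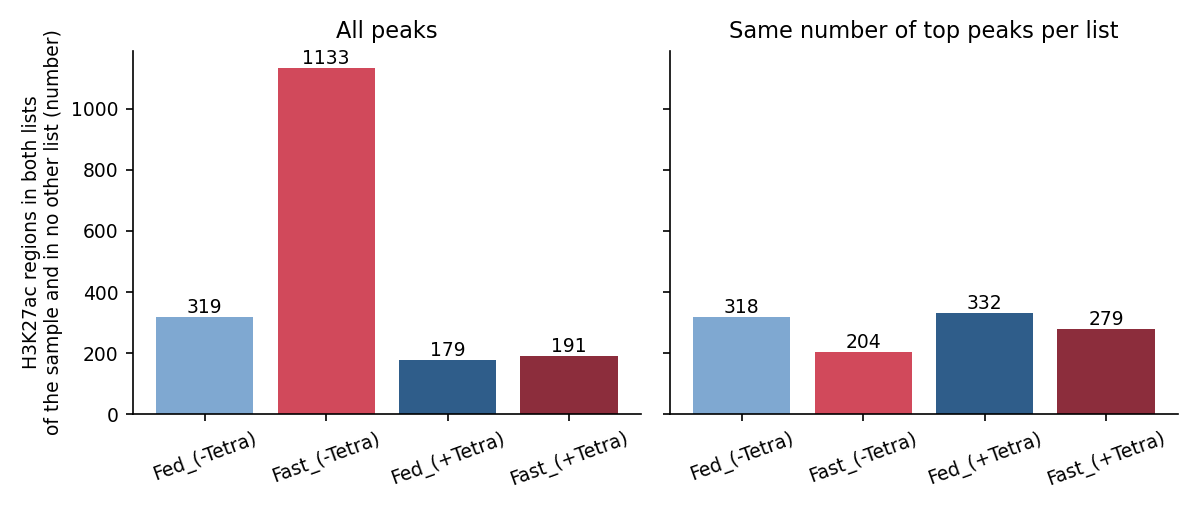
Number of H3K27ac regions found in both lists of a sample and in no other list (vertical axis, regions), for the 4 samples, with all peaks (left) and with the 32392 top-scoring peaks of each list (right). Fast_(-Tetra) is highest on the left with 1133 and lowest on the right with 204.

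The members were weak peaks within their lists. The authors' score, whose unit is not stated and which starts at 50 in each list, was used to rank peaks within a list only. In list 1 the members' scores ran from 50 to 379 with a median of 78.5, against a median of 115 over the whole list. In list 2 they ran from 50 to 648 with a median of 78.5, against 186. The median member sat at percentile 31.3 of list 1 and at percentile 22.1 of list 2. Above the median of the list stood 244 members (21.5%) in list 1 and 78 (6.88%) in list 2. The highest member stood at percentile 84.2 in list 1 and 77.2 in list 2. The own regions of the other samples were weak as well, with median percentiles between 13.0 and 31.0. Narrow peaks of exactly 200 bp, which made up 11.8% of list 1, were 1.85% of the members' peaks there.

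**Figure D2:**
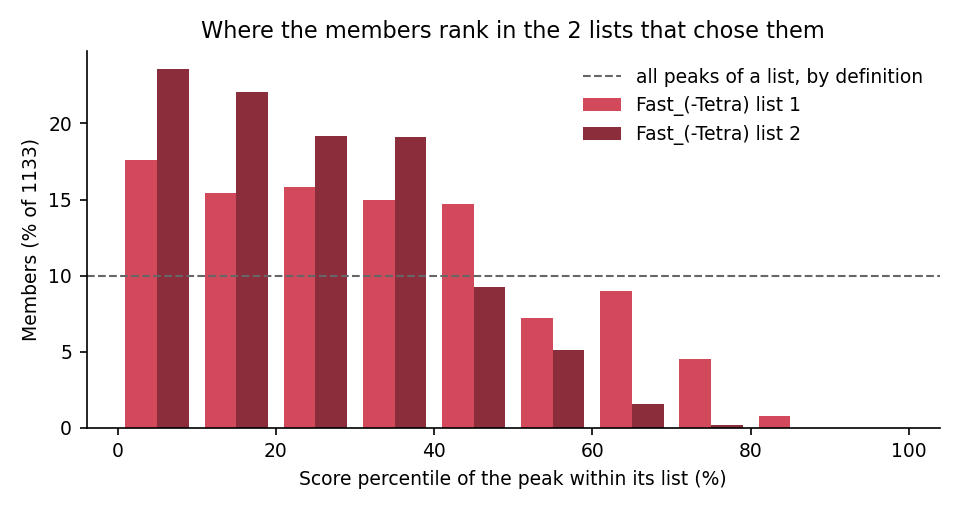
Members by the score percentile of their peak within each Fast_(-Tetra) list (horizontal axis, percentile in steps of 10; vertical axis, percent of the 1133 members), with a dashed line where all peaks of a list lie by definition. The lowest step holds 17.6% of the members in list 1 and 23.6% in list 2, and the highest step holds none in either list.

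Most members rested on clear overlap of their 2 peaks, and a small number lay at the edge of the rule. Members were 295 to 2490 bp wide with a median of 806 bp. Their peaks overlapped by 3 to 1639 bp, with a median of 452 bp, or 96.6% of the shorter peak. In 18 members (1.59%) the overlap was 50 bp or less, and 24 further list 1 regions just missed the rule with a list 2 region up to 50 bp away. Absence from the other samples was often absence from a short stretch: a peak of another sample lay within 100 bp of 32 members (2.82%), within 500 bp of 202 (17.8%), within 1000 bp of 324 (28.6%) and within 5000 bp of 724 (63.9%).

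Among regions present in both Fast_(-Tetra) lists and absent from all 4 Fed lists, the members are those without a Fast_(+Tetra) peak. Of 2382 such regions, 1133 (47.6%) had no peak in either Fast_(+Tetra) list, 564 (23.7%) had one in list 1 only, 236 (9.91%) in list 2 only and 449 (18.8%) in both. Regions were weaker in the Fast_(-Tetra) lists the fewer Fast_(+Tetra) lists held them. Where both Fast_(+Tetra) lists had a peak, the median percentile was 61.4 in Fast_(-Tetra) list 1 and 45.3 in list 2, against 31.3 and 22.1 for the members. With list 1 only the values were 45.6 and 31.4, and with list 2 only they were 40.2 and 37.0. The median width was 1120 bp where both lists had a peak and 806 bp for the members. Gene bodies held 51.9% of the regions shared with both Fast_(+Tetra) lists and 63.0% of the members.

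The H3K9ac lists, which played no part in the choice, were read in the same 4 classes. At the members, an H3K9ac peak was found in 14.3% and 10.9% of regions in the Fast_(-Tetra) lists, and in 15.8% and 12.9% in the Fast_(+Tetra) lists. Where both Fast_(+Tetra) lists had an H3K27ac peak, the shares were 18.5% and 13.1%, and 19.8% and 17.6%. Of all merged H3K27ac regions, 19.1% and 15.1% had a peak in the Fast_(-Tetra) H3K9ac lists and 21.9% and 16.8% in the Fast_(+Tetra) ones. So the members had H3K9ac peaks in fasted, tetracycline-treated crypts too, but in each Fast list less often than all regions. Fed shares of the members were 1.77% and 10.9% without tetracycline and 2.91% and 9.44% with it. For all regions the Fed shares were 10.8% and 21.2% without tetracycline and 14.1% and 18.3% with it. The H3K9ac lists differed in size, and the shares are set against all regions list by list below.

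**Figure D3:**
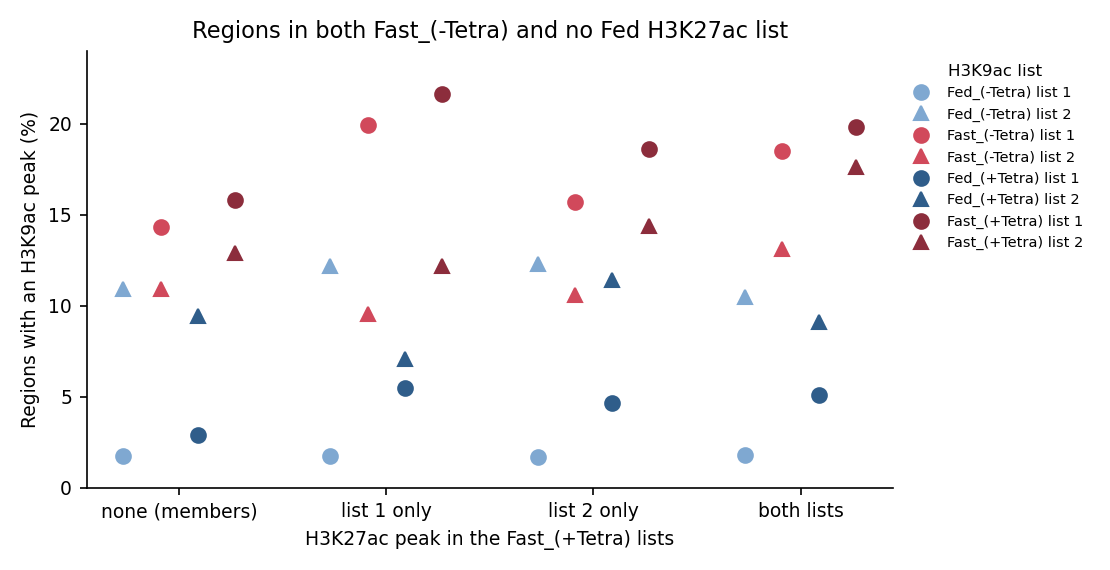
Percent of regions with an H3K9ac peak (vertical axis) in each of the 8 H3K9ac lists, for regions in both Fast_(-Tetra) and no Fed H3K27ac list, split by their H3K27ac peaks in Fast_(+Tetra) (horizontal axis). Circles are lists 1 and triangles lists 2; the members, at the left, have 15.8% and 12.9% in the Fast_(+Tetra) H3K9ac lists.

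The members with the highest scores, ranked by the lower of their 2 percentiles, lay at genes of several kinds. Cyp2t4, of the cytochrome P450 family, had the highest, with scores of 323 and 466 (percentiles 82.0 and 70.9) at chr7:27152747-27153935, 0.374 kb from the gene's end. Near Cracr2a, a regulator of calcium entry, the member chr6:127585922-127587114 scored 167 and 374. Next to Zdhhc19, a protein palmitoyltransferase, chr16:32508859-32510441 scored 165 and 365. These 3 exceeded the list medians in both lists, as did all 10 of the highest members.

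A Wnt ligand and an R-spondin receptor were among these 10. The member inside Wnt3, a ligand that Paneth cells supply to stem cells, lay 16.9 kb from the nearest end at chr11:103800372-103801899 and scored 203 and 270. Its only H3K9ac peak was in Fast_(+Tetra) list 1. The member inside Lgr4, whose product binds R-spondins, lay 35.3 kb from an end at chr2:109952130-109953758 and scored 146 and 267. It had an H3K9ac peak in Fast_(-Tetra) list 2 alone, and Fast_(+Tetra) list 2 had a separate H3K27ac peak 1.679 to 2.625 kb from the centre of the member, outside it.

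The other 5 of the highest 10 were assigned to Ankrd55, Pla2g12a, Lgalsl, Sys1 and Anks1. Pla2g12a encodes a secreted phospholipase A2, and its member, 7.97 kb inside the gene, scored 137 and 295. Sys1, needed for traffic to the Golgi, had a member whose midpoint lay 1.57 kb from its end and whose edge came within 1 kb of it, scoring 162 and 283. Anks1 had the member chr17:27920540-27921458 with 161 and 263 and with H3K9ac in 1 list of each Fast sample. Over these 10 members, 3 had an H3K9ac peak in a Fast_(-Tetra) list, 5 in a Fast_(+Tetra) list and 2 in a Fed list.

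**Figure D4:**
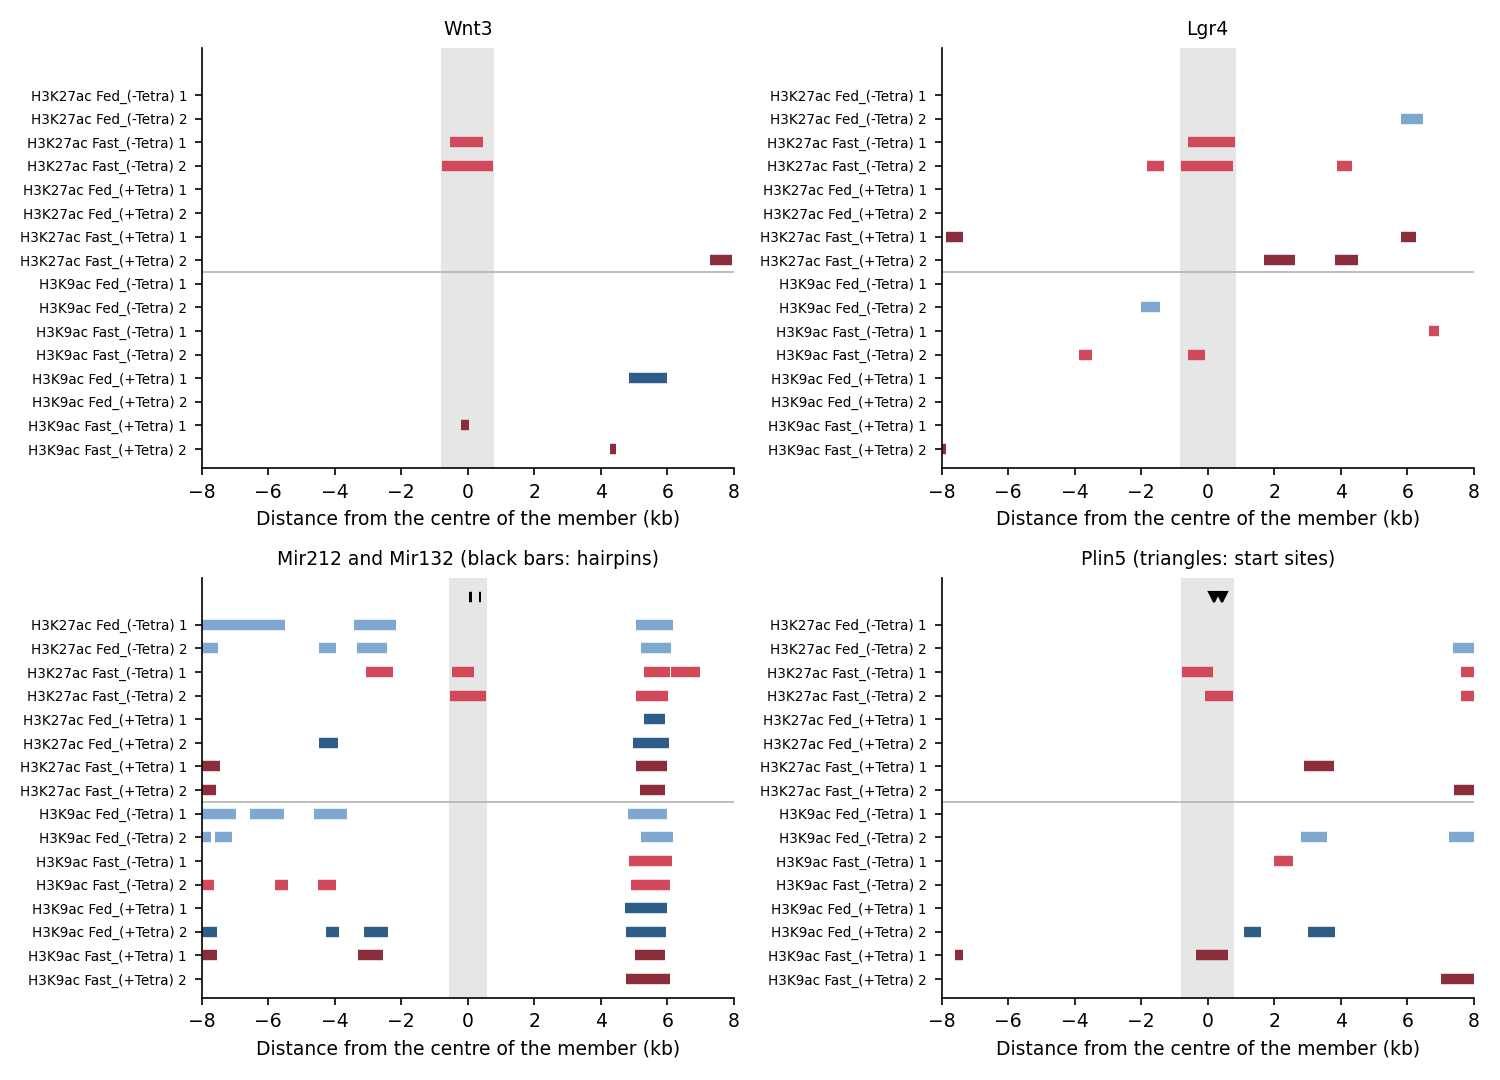
Peaks of the 16 lists within 8 kb of 4 members (horizontal axis, distance from the member's centre in kb; each row is 1 list, with H3K27ac above the line and H3K9ac below). Grey marks the member, in which the only H3K27ac peaks are those of the 2 Fast_(-Tetra) lists; bars show extent, not height.

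The member over Mir212 and Mir132 scored 107 in list 1 and 120 in list 2, at percentiles 46.1 and 37.2. Its list 1 peak reached from -0.483 to 0.186 kb of the centre and so covered the Mir212 hairpin but not that of Mir132, while the list 2 peak covered both. No H3K9ac list had a peak in it. About 5 kb away, all 8 H3K27ac lists and all 8 H3K9ac lists had a peak, as the map of 4 members shows. The H3K27ac scores there ran from 52.71 to 228.16, and both Fast_(-Tetra) lists (185.61 and 228.16) scored above the member.

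At gene ends, members were few. Within 1 kb of an end of a protein-coding gene lay 94 members, or 8.3% (95% Clopper-Pearson interval 6.76 to 10.1, counting error only), against 13.6% of all merged regions. Among regions found in exactly 2 of the 8 lists the share was 9.16%, and in the regions found in all 8 lists it was 40.7%. Among the own regions of the other samples, 35 of 319 lay at a gene end for Fed_(-Tetra), 6.15% for Fed_(+Tetra) and 4.71% for Fast_(+Tetra). Start-site windows gave the same picture, with 35 members (3.09%) against 8.3% of all regions and 3.32% of regions in 2 lists. The members thus lay at gene ends about as often as other regions found in few lists. Gene bodies held 714 members (63.0%, against 59.6% of all), and a region present in all 8 lists lay within 10 kb of 445 (39.3%, against 40.6%).

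After Cyp2t4 and Sys1, the gene-end members with the highest scores were at Cd9, Cyp2d10, Ctsw, Gm42427, Mia, Dmbt1, Racgap1 and Wfikkn2. Cd9, a membrane tetraspanin, scored 160 and 195 and had H3K9ac in 2 Fed lists and 1 list of each Fast sample. Cyp2d10, another cytochrome P450, scored 130 and 148, with H3K9ac in 1 list of each Fast sample and in no Fed list. Dmbt1, a secreted glycoprotein of mucosal defence, scored 104 and 127 at chr7:131033031-131034380. It had H3K9ac in both Fast_(-Tetra) lists, 1 Fast_(+Tetra) list and no Fed list, while Sys1 and Wfikkn2 had it in 1 Fast_(-Tetra) list and in no other. Racgap1, which acts in cytokinesis, scored 141 and 124 with H3K9ac in 1 Fast_(-Tetra) and 1 Fed list. Ctsw, a protease of cytotoxic lymphocytes, scored 186 and 144, with 1 Fast_(+Tetra) and 1 Fed H3K9ac list.

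Plin5, whose promoter is printed above, lay under a weak member, chr17:56116338-56117884, with scores of 59.5 and 86.3. The list 1 and list 2 peaks of this member overlapped only between -0.095 and 0.163 kb of the centre. The annotated starts of Plin5 lay at 0.188 and 0.438 kb. The list 1 peak ended short of both, so the printed promoter lay under the list 2 peak alone. The single H3K9ac peak over the member belonged to Fast_(+Tetra) list 1. Cc2d2a, needed for cilia and also picked after its values were seen, had a member over its start with scores of 96.3 and 119 and with H3K9ac in both Fast_(-Tetra) lists, 1 Fast_(+Tetra) list and no Fed list.

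A member was assigned to 986 of 21887 protein-coding genes (4.5%), inside the gene or else at the nearest end. Stem cell genes had members in 5 of 12 cases, Lgr5, Olfm4, Axin2, Sox9 and Lrig1, with 8 of the 293 merged regions assigned to the 12 genes (2.73%, against 1.01% of all regions). The number of regions per gene differs widely, so shares of genes and of regions both are given, and no test was run because the lists were chosen with results of these data known.

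The stem cell members lay away from gene ends, and all 8 stood below the median score of list 1. In Lgr5, the R-spondin receptor that marks crypt base stem cells, the member chr10:115484422-115485105, 34.4 kb from an end, scored 89.7 and 194 and had H3K9ac in 1 Fast_(+Tetra) list. Olfm4, a secreted stem cell marker, had members scoring 88.6 and 136 and 50.3 and 69.4. Lrig1, a negative regulator of ErbB receptors, had a member of 91.5 and 215 inside the gene and one of 52.7 and 263 beyond it. Axin2, a Wnt target that restrains Wnt signalling, had 1 member 9.41 kb from an end with 50.6 and 107 and 1 at 120.0 kb with 76.8 and 76.3. The member nearest to Sox9, a transcription factor of crypt progenitors, scored 81.0 and 99.8 at 30.7 kb from the gene. None of these 8 members had an H3K9ac peak in a Fast_(-Tetra) list.

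Genes of fasting and fatty acid oxidation had members in 3 of 15 cases, with 4 of 175 regions (2.29%). Cpt1a, which admits long-chain fatty acids to mitochondria, had 2: chr19:3331679-3332379 scored 69.2 and 57.0 with H3K9ac in 1 list of each Fast sample, and chr19:3353138-3354195 scored 75.9 and 53.4 without H3K9ac. Ppara, the nuclear receptor of the fasting response, had a member 9.88 kb from its end with 63.1 and 52.3. Ppargc1a, a coactivator of mitochondrial genes, had one 90.1 kb inside with 121 and 59.0. In list 2 each of these 4 members stood below percentile 10. Pdk4, a kinase that restrains glucose oxidation, had no member.

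In the remaining lists, counts of regions were small, and the shares are set beside the 1.01% of all regions and the 4.5% of all genes. Epithelial identity genes had members at Krt18, Hnf4a and Gata6 (3 of 14 genes, 4 of 258 regions, 1.55%), and nutrient signalling genes at Insr and Ddit4 (2 of 14 genes, 2 of 247 regions, 0.81%). At Insr, the insulin receptor, the member scored 93.7 and 206 with H3K9ac in 1 Fast_(-Tetra) list. Among antimicrobial and Paneth genes, only Mmp7, which activates alpha-defensins, had a member (1 of 49 regions, 2.04%), with scores of 52.3 and 83.6 over its start. The regeneration list (0 of 81 regions), the secretory list (0 of 62) and the immune and stroma list (0 of 83) had none. Of 10 genes of other tissues, Myod1, the muscle regulator, had 1 member, 1.35 kb from the gene, among the list's 8 regions (12.5%). With so few regions per list, none of these shares sets a list apart from all regions.

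Members were spread over genes rather than gathered. Of the 986 genes, 863 had 1 member, 104 had 2, 15 had 3, 3 had 4 and 1 had 5. Rad51b, of homologous recombination, had the 5, among 79 regions assigned to it, and is 551 kb long. Aff1 (a subunit of elongation complexes), Id2 (an inhibitor of helix-loop-helix factors) and Tbl1xr1 (of a corepressor complex) had 4 each, among 40, 57 and 88 regions. All 4 members of Id2 lay 84.4 to 216 kb from that short gene. Anks1 had 3 among only 16 regions, and Chd7, Sptbn1, Cachd1, Tcte2 and Frmd4b had 3 among 22 to 41. Taking members up to 10 kb apart as a run, 1056 members stood alone, 37 runs held 2 and 1 run held 3, inside Cachd1 at chr4:100795103-100801894. Its 3 members scored 51.0 to 97.9 in list 1 and 65.0 to 170 in list 2, and no H3K9ac list had a peak in them.

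By chromosome, members were 0.843% to 1.28% of the regions of chromosomes 1 to 15 and 17 to 19. Chromosome 16 had 60 of 4018 regions (1.49%) and chromosome X 12 of 2009 (0.597%). On Y, 0 of 191 regions were members.

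Tests were run on H3K9ac alone, because its lists played no part in the choice of members. For each H3K9ac list, the share of members with a peak was divided by the share of all merged H3K27ac regions with a peak in that list, on the log2 scale, because the H3K9ac lists held between 17249 and 99050 peaks. The ratios were -0.42 and -0.48 in the Fast_(-Tetra) lists, -0.47 and -0.39 in the Fast_(+Tetra) lists, -2.62 and -0.95 in the Fed_(-Tetra) lists and -2.28 and -0.95 in the Fed_(+Tetra) lists. All were below 0, so the members had H3K9ac less often than the average H3K27ac region in each list. The 4 Fast values lay above the 4 Fed values without overlap, and the Fast values of both tetracycline states lay together.

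The Fast_(-Tetra) lists were not set apart from the other 6. Their mean ratio was -0.45, against -1.28 in the others, a difference of 0.83 (two-sided exact permutation test over 28 arrangements of the lists, p = 0.286, 0.524 after Benjamini-Hochberg adjustment over 4 samples, smallest possible p 0.0357). The same difference was 0.45 for the own regions of Fed_(-Tetra), -0.01 for those of Fed_(+Tetra) and 0.75 for those of Fast_(+Tetra). In none of the 4 samples did this test set the sample's own lists apart. Its arrangements mix lists of all samples, so differences between feeding states are part of the spread it uses. With 28 arrangements and adjustment over 4 samples, it had little room to give a low p-value, and no absence of a difference follows. Lists were taken as separate; if the 2 lists of a sample are repeats, the p-values are too small.

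By feeding, the members' H3K9ac ratio was higher in Fast than in Fed lists by 1.34 without tetracycline and by 1.18 with it. The mean of both, 1.26, gave p = 0.0556 by an exact permutation of labels within each tetracycline state, the smallest that 36 arrangements allow, and 0.222 after Benjamini-Hochberg adjustment over 8 tests. These tests were added after the values had been seen. Taken relative to regions in exactly 2 H3K27ac lists the mean was 0.677 (exact permutation p = 0.0556), and for the regions chosen with equal numbers of H3K27ac peaks it was 0.758 (exact permutation p = 0.111). The difference between the states was 0.15 (exact permutation p = 0.833, adjusted 0.952), and the pooled SD between lists of a sample was 0.753. Leaving out 1 H3K9ac list moved this difference between -0.681 and 0.984. With 36 arrangements of so few lists, no absence of a difference between the states follows. The size of the Fast minus Fed difference rested on lists 1. There it was 2.2 without and 1.8 with tetracycline, but 0.47 and 0.57 for lists 2. The Fed lists 1 were also the smallest H3K9ac lists, with 17249 and 24643 peaks. Without Fed_(-Tetra) list 1 the difference without tetracycline was 0.503. With the same number of top-scoring H3K9ac peaks from each list, the mean Fast minus Fed difference was 1.06 (exact permutation p = 0.0556). It was then 1.07 without and 1.04 with tetracycline.

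The own regions of Fast_(+Tetra) also separated by feeding, but narrowly, and those of the Fed samples did not. In the Fast_(+Tetra) set the lowest Fast value was -0.766 and the highest Fed value -0.815. Its Fast minus Fed difference in lists 2 without tetracycline was 0.0482. For the Fast_(+Tetra) set the mean Fast minus Fed difference was 0.91 (exact permutation p = 0.0556, adjusted 0.222). For the own regions of Fed_(-Tetra) it was 0.34 (exact permutation p = 0.611) and for those of Fed_(+Tetra) -0.03 (exact permutation p = 0.833). Whether the sets differ from each other was not tested.

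**Figure D5:**
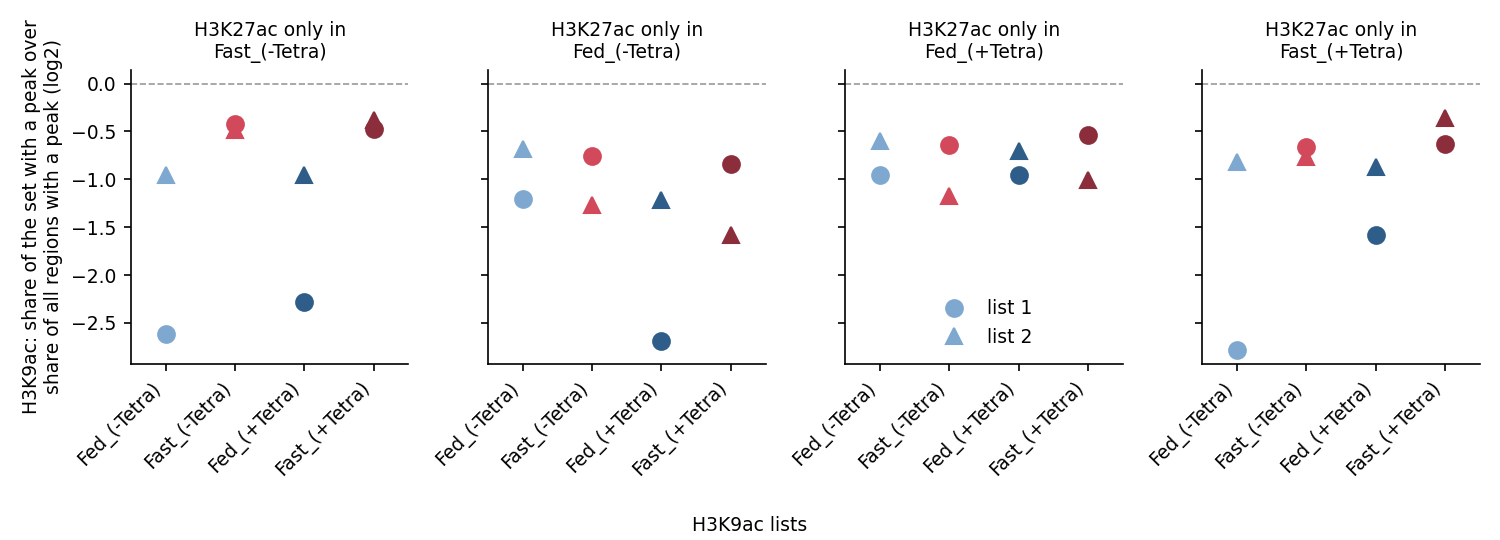
H3K9ac at the own H3K27ac regions of each sample (1 panel per sample), as log2 of the share of the set with an H3K9ac peak over the share of all merged H3K27ac regions with one (vertical axis), in the 8 H3K9ac lists (horizontal axis; circles lists 1, triangles lists 2). In the left panel, the members, the Fast lists lie between -0.48 and -0.39 and the Fed lists between -2.62 and -0.95.

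Region by region, few members had H3K9ac in the pattern by which they were chosen. No H3K9ac list had a peak in 603 members (53.2%, against 54.5% of all regions). In 1 list only, 324 had a peak (28.6%, against 18.8% of all regions and 27.3% of regions in 2 lists). In 2 or more lists, 206 had one (18.2%, against 26.7% and 17.5%). H3K9ac peaks of Fast lists alone were found at 297 members (26.2%, against 15.3% of all regions and 21.7% of regions in 2 lists). Those of Fed lists alone were found at 99, or 8.74%. That share was above the 7.83% of all regions and below the 11.1% of regions in 2 lists. Both Fast_(-Tetra) H3K9ac lists had a peak in 37 members (3.27%, against 9.03% of all regions and 2.35% of regions in 2 lists). Both Fast_(+Tetra) lists had one in 50 (4.41%, against 10.1% and 2.89%). A peak in both Fast_(-Tetra) lists and in no other H3K9ac list occurred in 7 members (0.618%). The share was 0.232% of all H3K27ac regions and 0.322% of regions in 2 lists. A peak in both Fast_(+Tetra) lists and no other occurred in 16 (1.41%), against 0.535% and 0.655%.

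Members with the same pattern in both marks lay at Cyria, Rad51b, Pex14, Sptbn1, Lsm6 and Nfib. The one nearest to Rad51b, chr12:79969502-79971342, had the highest list 2 score of all members, 648, and 67.8 in list 1. At Cyria, a regulator of Rac1, chr12:12508850-12510050 scored 109 and 141 at 128 kb from the gene. At Pex14, of peroxisomal protein import, the member 35.1 kb inside the gene scored 60.8 and 72.5. Sptbn1, a beta spectrin, had the wide member chr11:30186492-30188206 with 110 and 63.5. Nfib, a transcription factor, had the weakest, with 65.9 and 50.3, close to the floor of the score.

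The strongest members had H3K9ac more often than the weakest. The members were ranked by the lower of their 2 percentiles and divided into 4 bins. In the lowest bin of 284 members, 44 (15.5%) had an H3K9ac peak in a Fast_(-Tetra) list, 51 in a Fast_(+Tetra) list and 50 (17.6%) in a Fed list. In the highest bin of 283, the shares were 27.6%, 25.4% and 22.6%. The 2 bins between had 21.8% and 22.8% in Fast_(-Tetra) lists, 23.5% and 30.2% in Fast_(+Tetra) lists and 19.6% and 22.4% in Fed lists. In Fast_(+Tetra) lists the highest bin thus stood below the bin before it. Median width was 752 bp in the lowest and 926 bp in the highest bin, and the part of width in these shares was not tested.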

How the data were processed

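CUT&Tag peak lists of 8 samples, 2 per sample, were used. The authors called peaks in each library and deposited, a position for each peak, a score without a stated unit and a name that starts with MACS. Per the submitters' processing notes, FastQC, Bowtie and SAMtools were used and the build was mm10; versions, peak settings and the use of IgG are not given in the sources used here. The lists' names say that data were downsampled. Peaks were merged, counted and permuted with Python 3.11.15, numpy 2.4.6 and pandas 2.3.3. Peaks off the main chromosomes (0.587%) were left out. Genes and promoter windows came from RefSeq tables for GRCm38.p6; sequences of the members themselves were not analysed here. Named members were the 10 highest by the lower percentile, the 10 highest at gene ends, the genes with most members, those with the same H3K9ac pattern, and genes of the fixed lists. Members, gene lists and tests were chosen with earlier results of these data known. List numbers carry no stated pairing and served only in a replicate block. Counting was tested on simulated lists. Some items that these rules name are not reported here.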

Additional observations from a re-analysis of the deposited data

How the results depend on the processing

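The number of members depended on how many peaks were used. With the upper 0.5 of each list by score, own regions numbered 677 for Fast_(-Tetra), 92 for Fed_(-Tetra), 37 for Fed_(+Tetra) and 80 for Fast_(+Tetra); with the 32392 top-scoring peaks of each list, 204 for Fast_(-Tetra) and 332 for Fed_(+Tetra). With that number of peaks in the 2 lists of the sample alone, chosen after the data were seen, they were 49, 51, 52 and 26 in the order Fast_(-Tetra), Fed_(-Tetra), Fed_(+Tetra), Fast_(+Tetra). Leaving out 1 H3K27ac list gave 1162 to 30125 regions for Fast_(-Tetra), highest without its own list 2 and 8616 without its list 1, 331 to 2881 for Fed_(-Tetra), 196 to 3492 for Fed_(+Tetra) and 207 to 13167 for Fast_(+Tetra); each upper value counts regions of a single remaining list. Peak width, overlap, bridged gaps, other sequences and a clearance of 1 kb kept the count of members between 809 and 1143. Within 2.5 kb of a gene end lay 16.4% of the members. The share of all regions in this wider window was not counted, so nothing particular to the members follows.

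For H3K9ac, own lists against the others gave an exact permutation p between 0.0714 and 0.714 over the alternatives, and 0.312 with a replicate block (difference 0.827, smallest possible p 0.0625). Fast minus Fed gave an exact permutation p between 0.0556 and 0.222, and 0.125, the smallest possible, with a replicate block (difference 1.26). Relative to regions in exactly 2 H3K27ac lists the difference was 0.677. With equal list sizes it was 0.758 for H3K27ac and 1.06 for H3K9ac. Leaving out 1 H3K9ac list moved the difference without tetracycline between 0.503 (without Fed_(-Tetra) list 1) and 2.17 (without Fed_(-Tetra) list 2), and the difference between the states between -0.681 and 0.984 for the same lists. The list numbers pair nothing that the labels state. Depth is unknown and limits what absence of a peak shows.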
